A study of Mus musculus with 4 samples.

Results

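Levels of 5 chemokine genes were described in immune cells of mouse melanomas: Cxcl9 and Cxcl10, the ligands of the receptor gene Cxcr3, and Cxcl16, the ligand of the receptor gene Cxcr6. They were chosen by symbol, and all 5 were found among the 12584 genes of the single-cell table, which held 34447 cells in 17 classes named by the authors. The cells were live CD45+ cells of YUMM1.7 tumours, sorted by flow cytometry. YUMM1.7 is a mouse melanoma line, here carrying ovalbumin (OVA) and in a derivative resistant to targeted therapy (RTT). All tumours grew in Rag2-/- mice, which make no T or B cells of their own, and all received OT-1 T cells, which recognise OVA, by adoptive transfer (ACT) on day 7, with harvest on day 10, 72 h later.

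There were 4 groups with 1 library each, and 3 tumours were pooled in each library. CTRL was the RTT line with an mCherry control vector. IRF3/7 was the RTT line overexpressing the interferon regulatory factors IRF3 and IRF7. COX2i was the mCherry RTT line in mice given celecoxib, an inhibitor of cyclooxygenase 2, and COX2i + 5-AZA was the same line with celecoxib and 5-azacytidine, an inhibitor of DNA methyltransferases. With 1 library per group there was no replicate of any condition, so no test between conditions was possible. Every interval given is a 95% interval that covers counting error only, and every difference compares libraries.

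CXCL9 and CXCL10 are secreted chemokines that draw CXCR3-bearing activated T cells and NK cells into inflamed tissue. Cxcl9 is mainly induced by interferon-gamma, whereas Cxcl10 also responds to type I interferons and NF-kB signalling, and monocytes, macrophages and dendritic cells are known sources of both. CXCL16 is made as a membrane-bound protein on myeloid cells and is released by the proteases ADAM10 and ADAM17. Its receptor CXCR6 marks effector and resident T cells and subsets of NK cells.

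Cxcl9 and Cxcl10 lie on the same strand of chromosome 5 with 18558 bases between them, and the bases just before each start are shown because these ligands are the genes whose levels moved furthest. Ensembl places Cxcl9 (ENSMUSG00000029417) at chr5:92321347-92328079 and Cxcl10 (ENSMUSG00000034855) at chr5:92346638-92348889 of GRCm38. Cxcl16 (ENSMUSG00000018920, chr11:70453983-70459984), Cxcr3 (ENSMUSG00000050232, chrX:101731535-101734269) and Cxcr6 (ENSMUSG00000048521, chr9:123806475-123811760) lie on other chromosomes. RefSeq sequences on GRCm38.p6 were matched for 4 of the 5 genes. The 250 bases before the start are written 5′ to 3′ on the minus strand, for Cxcl9 chr5:92328080-92328329 and for Cxcl10 chr5:92348890-92349139. Capitals mark matches to the letters GAAANNGAA (the core of an interferon-stimulated response element) or GGGNNTTCC (an NF-kB core) on either strand.
Cxcl9: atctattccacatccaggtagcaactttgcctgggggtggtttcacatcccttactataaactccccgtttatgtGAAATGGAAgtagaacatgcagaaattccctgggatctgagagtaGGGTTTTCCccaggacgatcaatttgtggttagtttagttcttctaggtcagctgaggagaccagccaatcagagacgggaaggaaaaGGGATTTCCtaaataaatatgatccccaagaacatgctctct
Cxcl10: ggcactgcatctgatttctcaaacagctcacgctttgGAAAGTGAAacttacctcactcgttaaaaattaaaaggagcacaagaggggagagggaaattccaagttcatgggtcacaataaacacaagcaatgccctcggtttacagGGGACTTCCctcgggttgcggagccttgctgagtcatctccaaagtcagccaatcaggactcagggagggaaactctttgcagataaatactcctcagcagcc
Cxcl9 held the interferon-response letters 175 to 167 bases before its start and NF-kB letters at 130 to 122 and 42 to 34. Cxcl10 held them at 213 to 205 and at 103 to 95. Over 32536 promoters, 7.15% held GAAANNGAA and 5.00% held GGGNNTTCC. The letters TTCNNNGAA (the GAS element), found in 7.04% of promoters, were in neither window. The windows of Cxcr3 and Cxcr6 held none of the 3 patterns. These matches describe letters, not occupied sites.

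The libraries CTRL, IRF3/7, COX2i and COX2i + 5-AZA held 8953, 6329, 9133 and 10032 cells and 26356819 to 78722763 unique molecular identifiers (UMIs, 1 per counted probe molecule). IRF3/7 was the shallowest, with a median of 3168 UMIs per cell against 6039.5 to 7502 in the others. No full cell barcode was shared by libraries, and 4830 of 29259 droplet barcodes occurred in more than 1, as pooling by probe barcode allows. Over all libraries the marker lists of NK cells, T cells, cDC1, cDC2, CCR7+ dendritic cells, neutrophils and mast cells summed highest in the class of that name, the monocyte list in Infl_Mono and the macrophage list in TAM_C1q. Monocyte_1 held more of the macrophage list (9537 CPM) than of the monocyte list (4536 CPM), and TAM_Spp1 held less of the macrophage list (12711 CPM) than neutrophils did (13269 CPM). In CTRL and COX2i, Infl_Mono and neutrophils held more macrophage markers than markers of their own name, with values beside the results they touch. Mlana, Dct, Tyr and Sox10, markers of melanoma cells, were not analysed here. Levels are given as CPM, the UMIs of a gene per 1000000 UMIs of all genes in the same cells. The median gene had a log2 ratio of CPM of -0.29 in IRF3/7 against CTRL, and the ratios of that library are to be read against this shift.

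Cxcl9 was lowest in CTRL and highest in COX2i + 5-AZA. Over all cells it was at 22.7 CPM in CTRL, 202 CPM in IRF3/7, 101 CPM in COX2i and 573 CPM in COX2i + 5-AZA. The 4 levels did not overlap within their intervals. Against CTRL, Cxcl9 was 8.88-fold higher in IRF3/7 (log2 ratio 3.15, 3.07 to 3.23), 4.44-fold in COX2i (2.15, 2.07 to 2.23) and 25.2-fold in COX2i + 5-AZA (4.66, 4.58 to 4.73). COX2i + 5-AZA exceeded COX2i by 2.51 (2.47 to 2.54) and IRF3/7 by 1.51 (1.47 to 1.55).

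Cxcl10 took another order, with its highest level in IRF3/7. It was at 26.1 CPM in CTRL, 1315 CPM in IRF3/7, 103 CPM in COX2i and 576 CPM in COX2i + 5-AZA. The log2 ratio against CTRL was 5.66 (5.59 to 5.73) in IRF3/7, 1.98 (1.91 to 2.06) in COX2i and 4.47 (4.40 to 4.54) in COX2i + 5-AZA. COX2i + 5-AZA was above COX2i by 2.48 (2.45 to 2.52) and below IRF3/7, with a log2 ratio of -1.19 (-1.21 to -1.17). Thus the library with the most Cxcl10 was not the library with the most Cxcl9.

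Cxcl16 varied far less than the CXCR3 ligands. Over all cells it was at 474 CPM in CTRL, 322 CPM in IRF3/7, 546 CPM in COX2i and 735 CPM in COX2i + 5-AZA. It was lower over all cells in IRF3/7 than in CTRL (-0.56, -0.59 to -0.52). Between these libraries it was lower in monocytes (-0.63, -0.77 to -0.47) and higher in macrophages (0.65, 0.58 to 0.71), pools whose classes differed. It was detected in 75.6% of CTRL cells, against 1.41% for Cxcl9 and 4.22% for Cxcl10. Between different genes such shares also depend on the probes, so only their changes between libraries are compared.

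Cxcr3 was at 2.59 CPM in CTRL, 11.2 CPM in IRF3/7, 2.13 CPM in COX2i and 3.23 CPM in COX2i + 5-AZA. It was higher in IRF3/7 than in CTRL (2.11, 1.84 to 2.39), whereas the intervals of CTRL and COX2i overlapped (-0.28, -0.59 to 0.03). Cxcr6 was near the limit of detection, with 26, 13, 10 and 25 UMIs in CTRL, IRF3/7, COX2i and COX2i + 5-AZA. Little order of the Cxcr6 levels can be drawn beyond the low count of COX2i, whose 10 UMIs (0.127 CPM) were fewer than the 26 of CTRL (0.383 CPM), with a log2 ratio of -1.59 (-2.81 to -0.49).

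**Figure D1:**
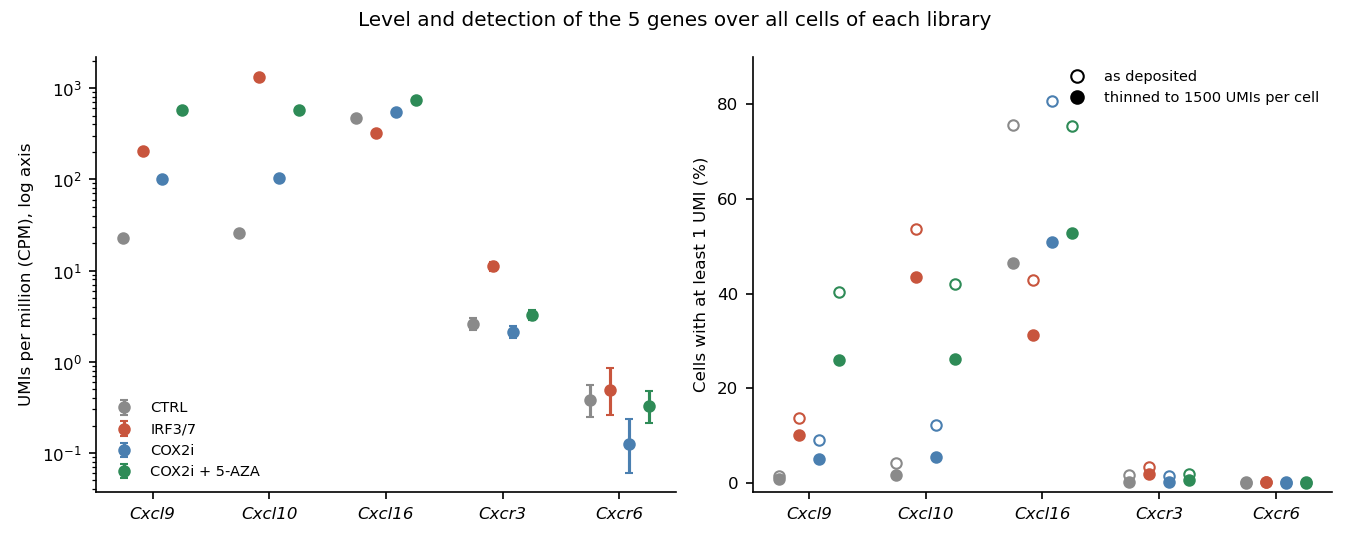
Left, level of each gene over all cells of a library in CPM on a log axis, with Poisson 95% intervals, 1 point per library; right, percentage of cells with at least 1 UMI, as deposited (open) and after each cell was thinned to 1500 UMIs (filled). Cxcl9 was highest in COX2i + 5-AZA at 573 CPM and Cxcl10 in IRF3/7 at 1315 CPM, while Cxcl16 spanned 322 to 735 CPM.

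Read against the whole table, Cxcl9 and Cxcl10 rose more than most genes against CTRL, whereas Cxcl16 ranked 8040 of 12175 genes in IRF3/7, 3178 of 12182 in COX2i and 1171 of 12266 in COX2i + 5-AZA. In IRF3/7 against CTRL, 3 of the 5 genes were at least 2-fold higher (Cxcl9, Cxcl10 and Cxcr3), against 10.8% of all genes tested, and 0 were lower, against 15.9%. In COX2i against CTRL, Cxcl9 and Cxcl10 were higher, 2 of 5 against 2.45%, and Cxcr6 was lower, 1 of 5 against 3.16%. Cxcl9 and Cxcl10 ranked 55 and 63 of 12182 genes from the largest rise in that comparison, although their ratios were the smallest of the 3 against CTRL.

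In COX2i + 5-AZA against CTRL, 2 of 5 were higher (background 6.49%) and 0 lower (11.4%). Against COX2i, 3 of 5 were higher, Cxcl9, Cxcl10 and Cxcr6 (6.85%), and 0 lower (11.9%). The Cxcr6 ratio (1.37, 0.26 to 2.59) rests on 25 against 10 UMIs and was -0.24 in cells with more than 2000 genes. Against IRF3/7, Cxcl9 and Cxcl16 were higher, 2 of 5 against 7.83%, and Cxcl10 and Cxcr3 lower, 2 of 5 against 12%. The comparisons share libraries and are not independent of each other.

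Within monocytes and macrophages alone, 4 of the 5 genes reached the minimum of 20 UMIs in a pair of libraries, Cxcr6 being the exception. Against CTRL, Cxcl9 and Cxcl10 were at least 2-fold higher and no member was lower in IRF3/7 (background 9.16% higher, 32.2% lower), COX2i (1.93%, 4.7%) and COX2i + 5-AZA (5.65%, 11.3%). This pool joins opposite parts. In IRF3/7 against CTRL, Cxcl9 was lower in monocytes (1079 CPM in CTRL, 266 CPM in IRF3/7, log2 ratio -2.02, -2.13 to -1.91) and higher in macrophages (11.2 and 298 CPM, 4.73). Those macrophages were of different classes, TAM_H2Ab1 making up 385 of 439 cells in IRF3/7 and 19 of 7475 in CTRL. Within TAM_H2Ab1 Cxcl9 was lower in IRF3/7 (312 CPM) than in CTRL (1263 CPM, or 855 CPM without the top cell). The monocyte classes differed as well. Monocyte_1 made up 44 of 139 monocytes in CTRL, with 601 of their 748 Cxcl9 UMIs, and 251 of 4596 in IRF3/7. In Monocyte_1 Cxcl9 was at 2937 CPM in CTRL and 554 CPM in IRF3/7. In Infl_Mono the log2 ratio of Cxcl9 was -0.27 (-0.51 to -0.02), and 38 of its 147 CTRL UMIs remained without the top cells. At the class mix of CTRL the log2 ratio over monocytes and macrophages was -0.17, over the 3 classes that allow it, which held 20.9% of the CTRL cells and gave 2.21 as found. Against CTRL, Cxcl10 was lower in monocytes and higher in macrophages both in COX2i (-0.48, -0.61 to -0.35, and 2.59) and in COX2i + 5-AZA (-0.35, -0.46 to -0.24, and 5.20). These monocytes differed in class too, Infl_Mono making up 93 of 139 in CTRL, 130 of 558 in COX2i and 764 of 4684 in COX2i + 5-AZA. Within Infl_Mono Cxcl10 was higher than in CTRL in both libraries (0.51, 0.35 to 0.67, and 0.63, 0.50 to 0.77). In Monocyte_1 Cxcl10 was at 836 CPM in CTRL (44 cells), 440 CPM in COX2i and 614 CPM in COX2i + 5-AZA. For Cxcl9 in monocytes of COX2i + 5-AZA against CTRL the log2 ratio was -0.05 (-0.16 to 0.05), and against COX2i it was -0.57, with 2.63 in macrophages. Both monocyte values join classes that went opposite ways. Against CTRL, Cxcl9 was at 1.54 (1.30 to 1.78) in Infl_Mono, whereas Monocyte_1 went from 2937 CPM in 44 cells to 1091 CPM in 3640 cells. Against COX2i, Cxcl9 was at 0.86 in Infl_Mono and -0.87 in Monocyte_1. Over monocytes and macrophages together Cxcl9 and Cxcl10 were also higher, and no member lower, when COX2i + 5-AZA was set against COX2i (6.16%, 9.77%). In COX2i + 5-AZA against IRF3/7, Cxcl9 was higher (background 20.8%) and Cxcl10 lower (6.63%). In these cells, too, the libraries highest for Cxcl9 and Cxcl10 were different ones.

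The share of cells with a UMI moved in the same order as the level. Cxcl9 was detected in 1.41%, 13.7%, 8.99% and 40.4% of cells in CTRL, IRF3/7, COX2i and COX2i + 5-AZA, and in 0.791%, 10.2%, 5.08% and 26.1% after each cell was thinned to 1500 UMIs, which left 8855, 5917, 9023 and 9723 cells. Cxcl10 was detected in 4.22%, 53.6%, 12.3% and 41.9% of cells, and in 1.67%, 43.5%, 5.56% and 26.1% after thinning. For comparison, NK cells, which are not a typical source, held Cxcl9 in 4.05% (IRF3/7) and 12.1% (COX2i + 5-AZA) of cells and Cxcl10 in 19.2% and 16.5%, at median depths of 2674.5 and 2606 UMIs. These NK shares can include free RNA, which was not tested, and the library-wide shares exceeded them.

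In CTRL and COX2i, Cxcl9 came from few cells. The 1% of cells with the most Cxcl9 UMIs held 97.7% of them in CTRL, 38.7% in IRF3/7, 60.3% in COX2i and 21.4% in COX2i + 5-AZA. For Cxcl10 these shares were 72.6%, 14.4%, 53.5% and 20.7%. Cxcl16 was spread evenly, with 5.24% to 9.78% of its UMIs in the top 1% of cells. In CTRL 1 cell held all 6 Cxcl9 UMIs of neutrophils, 8 of the 15 of Macro and all 49 of CCR7+ dendritic cells, and other such cells are given beside the class levels.

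The classes that supplied the ligands changed with the library. The study's classes were built from the same cells and genes, and Monocyte_1 is itself led by Cxcl9 with Nos2 and Gbp2b, and inflammatory monocytes (Infl_Mono) by interferon-stimulated genes, so class levels are descriptions and not independent of these genes. In CTRL Monocyte_1 held 39.0% of Cxcl9 UMIs in 0.491% of cells, with 136 of its 601 UMIs in 1 cell, and the macrophage classes together held 39.2%. In COX2i Monocyte_1 supplied 41.8% from 4.31% of cells, and cycling tumour-associated macrophages (TAM_cycling) 28.1%. In COX2i + 5-AZA Monocyte_1 supplied 52.7% from 36.3% of cells, TAM_cycling 15.9% and the macrophages high in MHC class II genes (TAM_H2Ab1) 10.7%.

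IRF3/7 stood apart in its source cells. There Infl_Mono supplied 69.9% of Cxcl9 UMIs and 80.4% of Cxcl10 UMIs, from 68.5% of cells. Infl_Mono therefore held about its share of cells for Cxcl9 and somewhat more for Cxcl10. TAM_H2Ab1 supplied a further 11.9% of Cxcl9 in that library and Monocyte_1 7.37%.

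Cxcl10 UMIs in the other libraries were divided among more classes. In CTRL Infl_Mono held 28.1% of them in 1.04% of cells, TAM_cycling 16.0% and the non-immune class Myofibrobl, left after the CD45 sort, 11.0%. In COX2i TAM_cycling held 40.9% in 34.6% of cells, which held 44.9% of all UMIs, Infl_Mono 11.0% and cDC2 10.7%. In COX2i + 5-AZA Monocyte_1 held 29.4%, TAM_cycling 28.0% in 13.2% of cells, which held 23.7% of all UMIs, and Infl_Mono 14.2%. The leading class thus held 28.1% to 40.9% of Cxcl10 UMIs outside IRF3/7.

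Cxcl16 was spread over macrophages, monocytes and dendritic cells. Macrophage classes together held 92.0% of its UMIs in CTRL, where they were 83.5% of cells and held 79.5% of all UMIs, led by TAM_C1q (48.9%), macrophages rich in complement C1q, and TAM_cycling (27.5%). In COX2i TAM_cycling led with 52.4%. In IRF3/7, with 439 macrophages in all, Infl_Mono held 60.6% and TAM_H2Ab1 22.4%. In COX2i + 5-AZA Monocyte_1 (29.7%), TAM_cycling (26.0%) and TAM_C1q (23.0%) shared it.

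**Figure D2:**
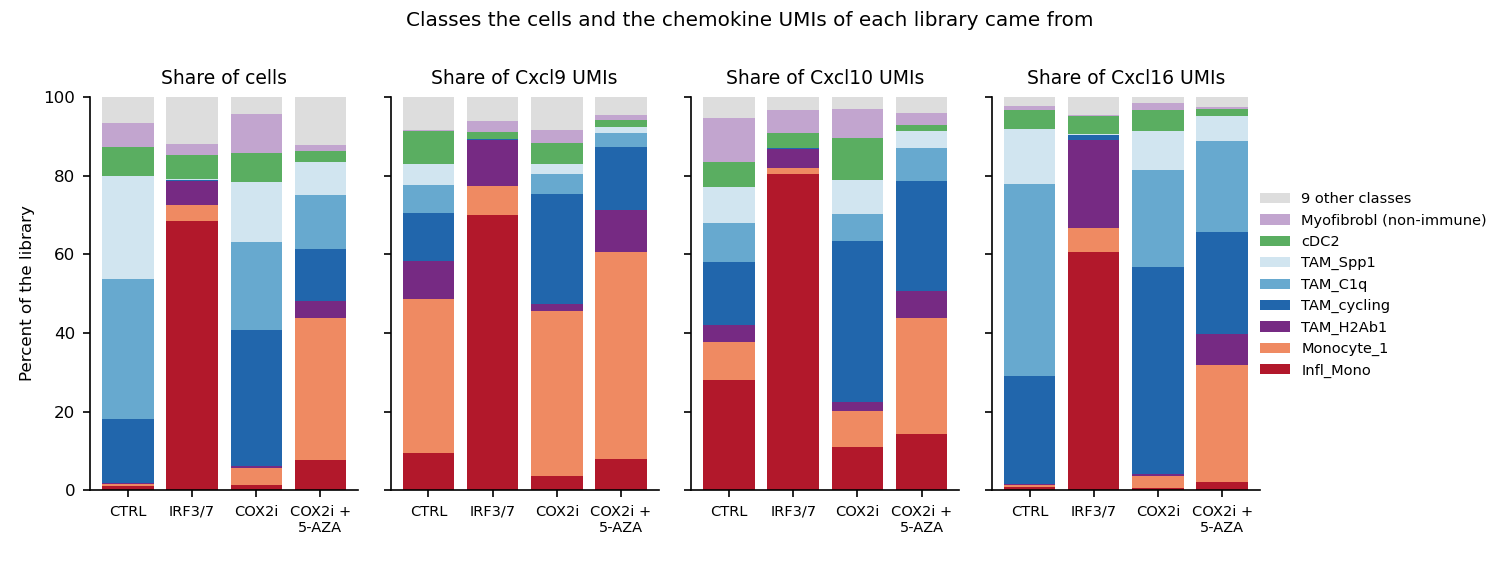
Stacked bars give, for each library, the percentage of cells in 8 named classes and 9 pooled others, and the percentage of Cxcl9, Cxcl10 and Cxcl16 UMIs from each. Infl_Mono made up 68.5% of IRF3/7 cells and supplied 69.9% of its Cxcl9 and 80.4% of its Cxcl10, whereas Monocyte_1 supplied 52.7% of Cxcl9 in COX2i + 5-AZA.

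Within classes, COX2i + 5-AZA held more Cxcl9 than CTRL in each of the 8 classes that could be compared (at least 50 cells in both libraries and 20 UMIs together), with log2 ratios from 1.54 in Infl_Mono (3.42 without the top cell of each library) to 8.72 in Myofibrobl, where CTRL held 5 Cxcl9 UMIs. Cxcl10 was likewise higher in 8 of 8 classes, from 0.63 in Infl_Mono to 5.24 in TAM_cycling. The cell minimum left out Monocyte_1, which held 39.0% of CTRL Cxcl9 UMIs and went from 2937 CPM (44 cells) to 1091 CPM. TAM_H2Ab1 (19 CTRL cells) went from 1263 to 1073 CPM (855.5 to 1044 CPM without top cells). CCR7+ dendritic cells went from 1114 CPM, all in 1 of 10 cells, to 813 CPM. Also left out, cDC1 went from 9.68 to 1132 CPM and Ctsk_Macro from 14.9 to 563 CPM. Monocyte_3, NK and mast cells held 0 Cxcl9 UMIs in CTRL. Cxcl10 in Monocyte_1 went from 836 to 614 CPM. TAM_cycling, which held 1457 cells in CTRL and 1320 in COX2i + 5-AZA, went from 11.9 to 385 CPM for Cxcl9 and from 18.0 to 680 CPM for Cxcl10. TAM_C1q went from 4.65 to 113 CPM and from 7.50 to 263 CPM. The macrophages named for Spp1 (TAM_Spp1) went from 8.13 to 135 CPM and from 15.3 to 393 CPM. Some CTRL levels of Cxcl9 rested on 1 cell, without which TAM_cycling was at 7.37 CPM and TAM_Spp1 at 4.36 CPM, so that the ratios to COX2i + 5-AZA became larger.

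COX2i lay between these libraries in the same classes. TAM_cycling was at 63.2 CPM of Cxcl9 and 93.9 CPM of Cxcl10, TAM_C1q at 24.5 CPM (15.1 CPM without its top cell) and 33.9 CPM, and TAM_Spp1 at 30.2 and 103 CPM. Against CTRL, Cxcl9 had an interval above 0 in 6 of 7 classes, and Cxcl10 in 6 of 6. Ctsk_Macro is not among the latter, with 0 Cxcl10 UMIs in CTRL and 103 in COX2i, of which 1 cell held 43.7% (63.3 CPM, or 35.8 CPM without it). The exception for Cxcl9 was also Ctsk_Macro, the macrophages marked by the protease gene Ctsk, at 15.4 CPM in COX2i and 14.9 CPM in CTRL. In CTRL 78.9% of the Cxcl9 UMIs of Ctsk_Macro came from 1 cell, and without the top cell of each library the log2 ratio was 1.83.

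The macrophage classes that filled CTRL were almost missing from IRF3/7, which left 3 classes to compare. Infl_Mono itself differed between libraries: all 6 macrophage markers were detected, and their sum was 50551 CPM in CTRL, 9568 CPM in IRF3/7, 17395 CPM in COX2i and 6888 CPM in COX2i + 5-AZA, whereas the 3 measured of 4 monocyte markers summed to 5396, 13746, 7290 and 12038 CPM and the 5 neutrophil markers to 304, 1389, 362 and 4916 CPM. The part of these shifts in the Infl_Mono ratios was not tested. Cxcl10 was higher in all 3: in Infl_Mono it was at 1026 CPM in CTRL and 1892 CPM in IRF3/7 (log2 ratio 0.88), in cDC2, dendritic cells that present antigen on MHC class II, at 41.7 and 1028 CPM (4.63, while the 3 measured monocyte markers in cDC2 went from 962 to 5742 CPM, whose part was not tested), and in Myofibrobl at 20.1 and 456 CPM. Cxcl9 in Infl_Mono was at 304 CPM in CTRL and 252 CPM in IRF3/7, a log2 ratio of -0.27. This sign rests on 1 cell, which held 109 of the 147 CTRL UMIs, and without the top cell of each library the log2 ratio was 1.64.

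Monocyte_1, the class named partly by Cxcl9, did not follow the library-wide order. Its Cxcl9 level was 2937 CPM in CTRL (44 cells, 2315 CPM without the top cell), 554 CPM in IRF3/7, 1989 CPM in COX2i and 1091 CPM in COX2i + 5-AZA. Its Cxcl10 level was 836, 728, 440 and 614 CPM. The class held 44 cells in CTRL and 3640 in COX2i + 5-AZA, so the library-wide rise of Cxcl9 went with many more such cells and with a lower Cxcl9 level in them.

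Infl_Mono held the highest Cxcl10 level of any class with at least 20 cells in each of the 4 libraries, at 1026, 1892, 1459 and 1589 CPM. In CTRL its interval overlapped that of the next class, Monocyte_1, and in the other 3 it did not overlap the next, which was neutrophils in IRF3/7 (1603 CPM) and TAM_H2Ab1 in COX2i (744 CPM) and in COX2i + 5-AZA (694 CPM). Its Cxcl9 level was 304, 252, 485 and 881 CPM. For Cxcl9 the leading class was Monocyte_1 in CTRL, in COX2i and, with an interval that overlapped cDC1, in IRF3/7. In COX2i + 5-AZA cDC1 (1132 CPM), Monocyte_1 (1091 CPM) and TAM_H2Ab1 (1073 CPM) led, and neighbours in that order overlapped.

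Dendritic cells separated the ligands. cDC1, the dendritic cells of cross-presentation, held Cxcl9 at 474 CPM in IRF3/7, 351 CPM in COX2i and 1132 CPM in COX2i + 5-AZA, and Cxcl10 at 179, 20.7 and 230 CPM (38, 79 and 60 cells). cDC1 were detected with Cxcl9 in 31.6%, 40.5% and 61.7% of cells in those libraries and with Cxcl10 in 10.5%, 7.59% and 30.0%. In IRF3/7, 77.1% of their Cxcl10 UMIs came from 1 cell, without which the level was 42.2 CPM, and without the top cell it was 11.3 CPM in COX2i and 157 CPM in COX2i + 5-AZA. In cDC2 Cxcl9 was at 46.3, 71.7, 129 and 571 CPM in CTRL, IRF3/7, COX2i and COX2i + 5-AZA, and Cxcl10 at 41.7, 1028, 258 and 531 CPM. The IRF3/7 library was thus highest for Cxcl10 in cDC2 but not for Cxcl9. The monocyte markers in cDC2 were also highest there, at 962, 5742, 1049 and 2235 CPM in CTRL, IRF3/7, COX2i and COX2i + 5-AZA.

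CCR7+ dendritic cells (named DC3 in the deposited classes), the migratory state of dendritic cells, had the highest Cxcl16 levels of the classes with at least 50 cells in COX2i + 5-AZA (1223 CPM, 87 cells), and held 928 CPM in IRF3/7 (66 cells), where TAM_H2Ab1 was at 940 CPM with an overlapping interval. Cxcl16 in TAM_C1q was at 670 CPM in CTRL, 670 CPM in COX2i and 923 CPM in COX2i + 5-AZA. In TAM_Spp1 it was at 432, 616 and 725 CPM. In Infl_Mono it was lowest in COX2i + 5-AZA, at 518, 349, 468 and 300 CPM in CTRL, IRF3/7, COX2i and COX2i + 5-AZA. Cxcl16 was thus higher in these macrophage classes and lower in inflammatory monocytes in COX2i + 5-AZA than in CTRL, while the macrophage markers of Infl_Mono went from 50551 to 6888 CPM, whose part in it was not tested.

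**Figure D3:**
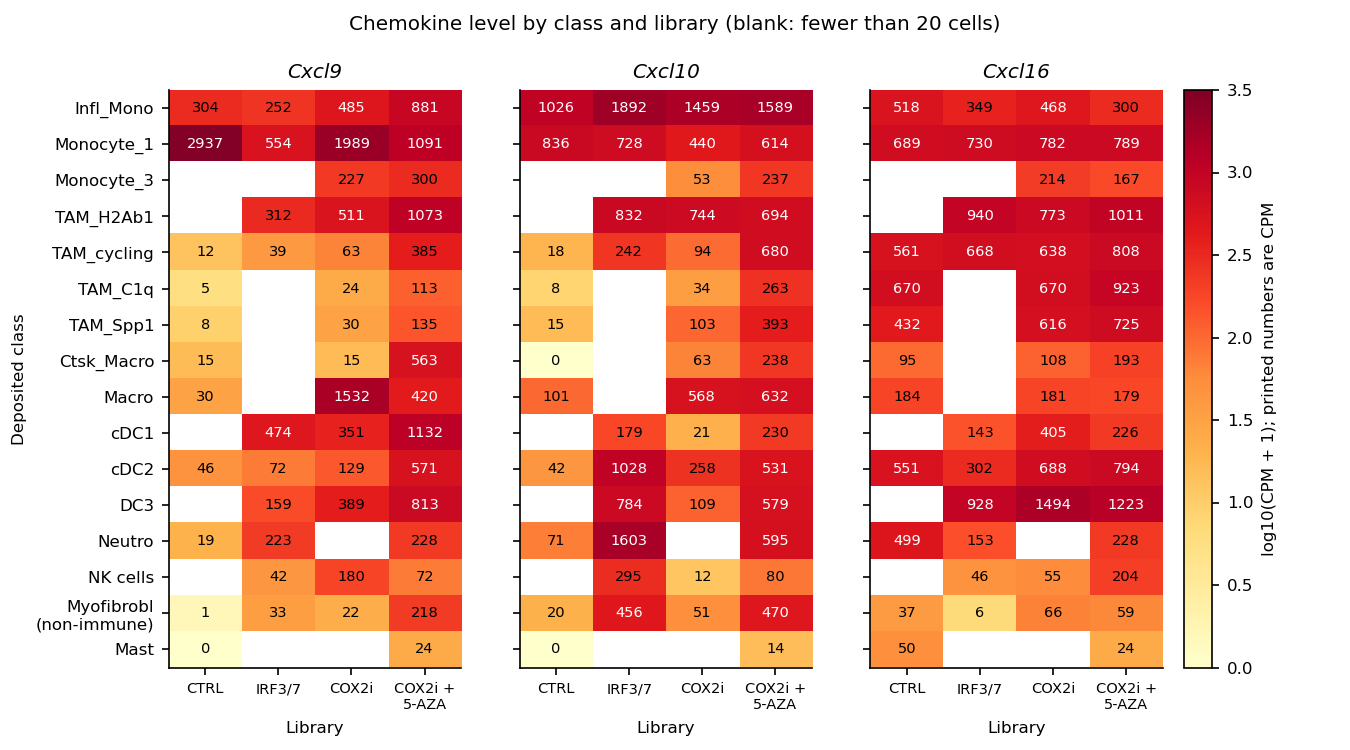
Each cell of the map gives the level in CPM of Cxcl9, Cxcl10 or Cxcl16 in 1 class and library, coloured by log10(CPM + 1), and blank where a class had fewer than 20 cells. Cxcl10 was highest in Infl_Mono in each library (1026 to 1892 CPM), and in TAM_cycling Cxcl9 went from 11.9 CPM in CTRL to 385 CPM in COX2i + 5-AZA.

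Because the mix of classes differed so much, the library-wide ratios were recomputed with each class weighted by its share in the reference library. IRF3/7 and CTRL shared 6 classes with at least 20 cells, which held 31.9% of CTRL cells. In those classes the log2 ratio of Cxcl9 was 2.47 as found (3.15 over all classes) and 0.28 at the CTRL mix, and that of Cxcl10 was 5.08 as found (5.66 over all classes) and 3.33 at the CTRL mix. In COX2i + 5-AZA the Cxcl9 ratio in shared classes went from 4.80 to 3.61 against CTRL and from 2.52 to 1.65 against COX2i. Against IRF3/7, Cxcl10 went from -0.97 to -0.19 and Cxcl9 from 1.87 to 1.95 in shared classes. Infl_Mono, with 68.5% of IRF3/7 cells, weighs most in the last pair, and by class the Cxcl10 ratio of COX2i + 5-AZA to IRF3/7 ran from -1.89 in NK cells and -0.95 in cDC2 to 0.04 in Myofibrobl, with intervals below 0 in 6 of 7 classes.

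The balance of Cxcl9 and Cxcl10 UMIs was then compared. Since each gene has its own probes, the ratio itself is not a ratio of transcripts, and only its change is interpretable. Over all cells the log2 ratio of Cxcl9 to Cxcl10 UMIs was -0.20 in CTRL, -2.70 in IRF3/7, -0.03 in COX2i and -0.01 in COX2i + 5-AZA. IRF3/7 differed from CTRL by -2.51 (-2.61 to -2.40), and COX2i + 5-AZA from IRF3/7 by 2.70 (2.65 to 2.74). COX2i + 5-AZA and COX2i differed by 0.02 (-0.03 to 0.07), although both ligands were over 5-fold higher in the former.

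Within classes the balance was as follows. In Infl_Mono the log2 ratio was -1.76, -2.91, -1.59 and -0.85 in CTRL, IRF3/7, COX2i and COX2i + 5-AZA. In Monocyte_1 it was 1.81, -0.39, 2.18 and 0.83. In cDC2 it was 0.15, -3.84, -1.0 and 0.10. In each of these 3 classes IRF3/7 was lowest and its interval overlapped no other, but the CTRL value of Infl_Mono rests on the 1 cell with 109 Cxcl9 UMIs. Without the top cell of each gene, Infl_Mono was at -3.43 in CTRL (-3.91 to -2.95) and -2.92 in IRF3/7, and IRF3/7 stayed lowest in Monocyte_1 (-0.43) and cDC2 (-3.91). TAM_H2Ab1 was at -1.42 in IRF3/7, -0.54 in COX2i and 0.63 in COX2i + 5-AZA, and Myofibrobl at -3.77 in IRF3/7, where 58.0% of the Cxcl9 UMIs came from 1 cell, against -1.11 in COX2i + 5-AZA. Without the top cells TAM_H2Ab1 was at -1.55 in IRF3/7 and -1.04 in COX2i, with overlapping intervals, and Myofibrobl at -4.80 in IRF3/7 (14.1 CPM of Cxcl9 in place of 33.5 CPM).

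**Figure D4:**
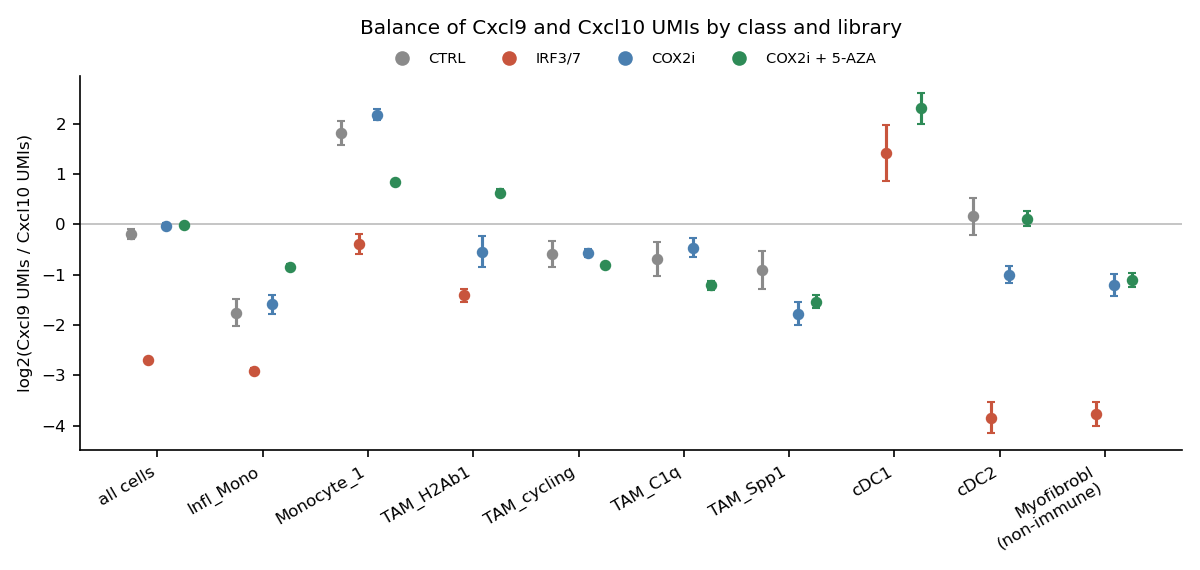
log2 of Cxcl9 UMIs over Cxcl10 UMIs for all cells and 9 classes, 1 point per library with Wald 95% intervals, shown where a class had at least 20 cells and enough UMIs of both genes. IRF3/7 lay lowest in Monocyte_1 (-0.39), cDC2 (-3.84) and Infl_Mono (-2.91, where CTRL fell to -3.43 without its top cells), and cDC1 lay above 0 in IRF3/7 (1.41, or 3.13 without its top cells) and COX2i + 5-AZA (2.30).

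Cxcl9 was found more often in cells that held Cxcl10. Among cells thinned to 1500 UMIs, 0.169% held both in CTRL, 6.64% in IRF3/7, 1.14% in COX2i and 10.4% in COX2i + 5-AZA. Cxcl9 was found in 10.1%, 15.3%, 20.5% and 39.8% of Cxcl10-positive cells and in 0.632%, 6.32%, 4.17% and 21.2% of Cxcl10-negative cells. Within Infl_Mono of IRF3/7 the shares were 14.6% and 7.32%, and within Monocyte_1 of COX2i + 5-AZA 51.8% and 34.7%. In TAM_H2Ab1 of COX2i + 5-AZA they were 42.1% and 38.6%, with overlapping intervals. Cells of 1 library are not replicates, so these shares describe the libraries.

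Cxcl9 and Spp1, the osteopontin gene that marks another macrophage state, were set side by side in monocytes and macrophages. Cxcl9 was found in 0.567%, 9.32%, 3.62% and 19.0% of Spp1-positive cells in CTRL, IRF3/7, COX2i and COX2i + 5-AZA, and in 1.62%, 11.9%, 13.0% and 34.1% of Spp1-negative cells. Within TAM_Spp1 of COX2i + 5-AZA the shares were 7.64% and 8.62%, and within TAM_C1q 7.46% and 9.64%, with overlapping intervals in both. Within Monocyte_1 of COX2i + 5-AZA they were 33.8% and 42.3%, and these intervals did not overlap. Within TAM_cycling of COX2i + 5-AZA they were 16.2% (13.7% to 19.0%) and 29.2% (25.3% to 33.3%), also apart. The difference was thus seen within some classes and not detectable within others.

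Cxcr3 was highest in NK cells, killer lymphocytes that the Rag2-/- host retains, and in cDC1. In NK cells it was at 79.6 CPM in IRF3/7 (160 UMIs, 568 cells) and 32.7 CPM in COX2i + 5-AZA (62 UMIs, 437 cells), a log2 ratio of -1.28 (-1.73 to -0.85). CTRL and COX2i held 11 and 50 NK cells with 2 and 4 UMIs, and all 4 of the latter were in 1 cell. Cxcr3 was detected in 20.8% of NK cells in IRF3/7 and 10.5% in COX2i + 5-AZA, or 14.5% and 5.07% after thinning. In monocytes and macrophages, which should lack the receptor, 1.11% and 1.40% of cells held it, at median depths of 3148 and 6300 UMIs against 2674.5 and 2606 in NK cells. The NK markers of the NK class summed to 20503 CPM in IRF3/7 and 13276 CPM in COX2i + 5-AZA. Its macrophage markers summed to 1107 and 3913 CPM, and the part of these shifts in the Cxcr3 ratio was not tested.

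The library-wide rise of Cxcr3 in IRF3/7 went with NK cells, which held 54.2% of its 295 UMIs and numbered 568 against 11 in CTRL. Outside NK cells Cxcr3 was also higher in IRF3/7 in Myofibrobl, with a log2 ratio of 2.23 (1.47 to 3.03). In macrophages it was 1.61 (0.83 to 2.30) on 19 UMIs, of which TAM_H2Ab1 held 17, a class with 0 Cxcr3 UMIs in CTRL. In monocytes, 72.6% of IRF3/7 cells, it was 0.013 (-1.92 to 3.10) on 45 against 2 UMIs, which gives no direction. Over monocytes and macrophages together it was 0.46 (0.015 to 0.90). In CTRL macrophages held 79.5% of the 176 UMIs at 2.59 CPM, in cells that should lack the receptor. Some NK-class cells held a UMI of a T cell gene, 64 in IRF3/7 and 32 in COX2i + 5-AZA. Without them Cxcr3 was at 76.8 CPM in IRF3/7 and 36.0 CPM in COX2i + 5-AZA. The class T_CD8 held 0, 8, 1 and 7 cells, too few for a level of either receptor.

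In cDC1 Cxcr3 was at 58.1 CPM in CTRL, 76.5 CPM in IRF3/7, 46.1 CPM in COX2i and 48.6 CPM in COX2i + 5-AZA, on 6, 15, 29 and 22 UMIs. Its intervals overlapped among the 4 libraries, so no order can be drawn. Cxcr3 in cDC2 was at 0.359 CPM in CTRL and 3.05 CPM in IRF3/7, which sets cDC1 apart from the other conventional dendritic cells in each library. In Myofibrobl it was at 2.28, 10.7, 3.85 and 8.88 CPM, in cells of very high depth (median 11036 to 20862 UMIs).

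**Figure D5:**
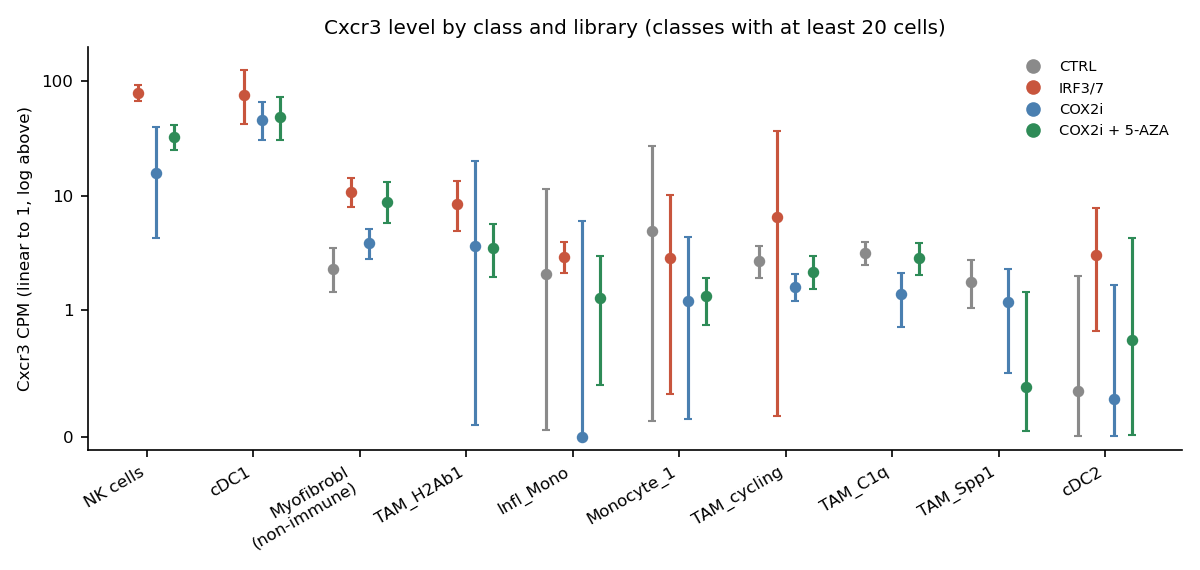
Cxcr3 level in CPM by class, 1 point per library with Poisson 95% intervals, on an axis that is linear to 1 and logarithmic above, for classes with at least 20 cells. NK cells reached 79.6 CPM in IRF3/7 and 32.7 CPM in COX2i + 5-AZA, and cDC1 46.1 to 76.5 CPM in the 3 libraries shown, while the monocyte and macrophage classes lay below 10 CPM.

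Cxcr6 gave 74 UMIs in all 4 libraries, and its class values are counts only. NK cells held 1, 8, 1 and 14 of them in CTRL, IRF3/7, COX2i and COX2i + 5-AZA, and 6 of the 14 came from 1 cell. Myofibrobl held 17 of the 26 in CTRL and 5 of the 10 in COX2i. In COX2i + 5-AZA the 7 cells of T_CD8 held 5, all in 1 cell. With so few T cells in the sort, the receptor of CXCL16 was not detectable at a level that allows a comparison.

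Other genes of the pathway were described by 4 lists. Of 21 measured genes of interferon and cytokine induction, 14 were at least 2-fold higher and 0 lower in IRF3/7 against CTRL (median log2 ratio 1.60, all genes -0.29), 5 and 0 in COX2i (0.25, all genes 0.04) and 10 and 0 in COX2i + 5-AZA (0.85, all genes -0.18). The shares of all genes in these comparisons were 10.8% higher and 15.9% lower, 2.45% and 3.16%, and 6.49% and 11.4%. Against COX2i, COX2i + 5-AZA had 9 higher and 1 lower (median 0.66, all genes -0.21, background 6.85% and 11.9%), and against IRF3/7 0 higher and 4 lower (median -0.48, all genes 0.09, background 7.83% and 12%). Irf1, an interferon-induced transcription factor, was at 113, 1008, 223 and 736 CPM in CTRL, IRF3/7, COX2i and COX2i + 5-AZA. Socs1, a feedback inhibitor of cytokine signalling, was at 16.2, 306, 30.6 and 181 CPM.

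Ifng, which encodes interferon-gamma, was at 0.103, 54.5, 0.470 and 9.13 CPM, on 7, 1437, 37 and 696 UMIs. NK cells held 840 of these UMIs in IRF3/7 (418 CPM) and 377 in COX2i + 5-AZA (199 CPM). T_CD8 held 569 in 8 cells (5574 CPM) and 263 in 7 cells (11674 CPM), the opposite order of levels, on very few cells. Stat2, which acts downstream of the type I interferon receptor, was at 33.9, 389, 50.6 and 105 CPM. In COX2i + 5-AZA against IRF3/7 the 4 lower genes were Ifng (-2.58), Stat2 (-1.89), Il12b (-1.38) and Il18 (-1.04). Over all cells the library with the highest Cxcl9 was not the one with the highest Ifng, and a link between the levels was not tested.

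Of the proteases and other ligands of these receptors, 4 were measured (Adam10, Adam17, Dpp4 and Pf4). Adam10, a sheddase of CXCL16, was at 186, 80.5, 212 and 162 CPM, and Adam17, the other sheddase of CXCL16, at 195, 163, 209 and 213 CPM. Dpp4, whose product truncates CXCL9 and CXCL10, was at 6.79, 25.0, 7.77 and 7.70 CPM. Pf4, a chemokine first known from platelets and also made by macrophages, was at 1400, 56.7, 597 and 751 CPM. Between IRF3/7 and CTRL 1 was higher (Dpp4) and 2 lower (Adam10 and Pf4), between COX2i and CTRL 0 were higher and 1 was lower (Pf4), and between COX2i + 5-AZA and CTRL 0 and 0, with medians of -0.73, 0.15 and -0.04 and background shares of 10.8% and 15.9%, 2.45% and 3.16%, and 6.49% and 11.4%.

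Of 20 other chemokines tested, 4 were higher and 8 lower in IRF3/7 against CTRL, 4 and 4 in COX2i, and 8 and 3 in COX2i + 5-AZA, against 10.8% and 15.9%, 2.45% and 3.16%, and 6.49% and 11.4% of all genes. The list medians were -0.17, 0.21 and 0.63. Ccl5, a chemokine made by lymphocytes and myeloid cells, was at 19.9, 527, 26.8 and 272 CPM. Xcl1, the NK and T cell ligand that draws cDC1, was at 1.06, 36.3, 4.13 and 14.9 CPM. Ccl24, an eotaxin, was at 16.1, 0.986, 4.28 and 99.5 CPM. Of 11 other chemokine receptors, 5 were higher and 1 lower in IRF3/7 against CTRL, 2 and 2 in COX2i and 5 and 2 in COX2i + 5-AZA, against the same shares of all genes, with medians of 0.84, -0.10 and 0.57. Among them Ccr7, the receptor of migratory dendritic cells, was at 4.63, 46.3, 16.7 and 34.6 CPM.

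Genes with the most similar pattern were named by Pearson's r of log2(CPM + 1) over 40 combinations of class and library with at least 50 cells, among 11474 genes. The combinations share libraries, classes and depth, so r is a description. For Cxcl9 they were Slamf8 (0.868), Gbp5 (0.862) and Gbp2 (0.842), and for Cxcl10 Irgm1 (0.871), Irf1 (0.864) and Isg15 (0.863). For Cxcl16 they were Basp1 (0.906), Zmynd15 (0.898) and Ncf1 (0.893). Cxcl9 and Cxcl10 were at 0.700 with each other, below these values. For the sparse receptors the nearest were E2f4 (0.765), Dapk2 (0.762) and Clnk (0.762) for Cxcr3, and Gata3 (0.933), Rab27b (0.930) and Sytl2 (0.925) for Cxcr6.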

How the data were processed

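CD45+ cells of 4 libraries were measured with the Chromium Flex kit, in which probe pairs ligated on fixed RNA are read out. The study's methods state that cellranger multi 7.1.0 was run with the mm10 probe set, that cells were filtered on detected genes and on mitochondrial and ribosomal content, that ribosomal and mitochondrial genes were removed, and that subclusters were assigned to cell types by known markers, which gave 17 classes in the deposited table. The authors deposited unnormalized UMI counts, and 1201 cells showed no more than 1000 of the genes in the table. Each probe pair covers a short stretch of its transcript, so counts of different genes are not comparable, and near-identical genes were not checked for shared probes.

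UMIs were summed per library and class and divided by all UMIs of those cells (CPM). Levels carry exact Poisson intervals, shares Clopper-Pearson intervals, and log2 ratios exact conditional intervals, all at 95%. Ratios needed 20 UMIs in the pair of libraries together, and within a class 50 cells in each. A count of 0 was set to 3 UMIs per library where a ratio was formed. A gene counted as higher or lower at a 2-fold difference. Possible doublets were not called. Each cell was thinned without replacement to 1500 UMIs for shares across depths. Python 3.11.15 with numpy 2.4.6, scipy 1.17.1, pandas 2.3.3 and matplotlib 3.10.9 was used, and the ratio and interval code was checked on simulated counts. The genes described, the lists and the alternatives were chosen with earlier results of these data known. Named genes were the 5 members, the 3 most similar genes of each, and list genes past the fold or that set a range. Monocytes are Infl_Mono, Monocyte_1 and Monocyte_3, and macrophages the TAM classes, Ctsk_Macro and Macro. Values of some genes of these lists are not reported here.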

Additional observations from a re-analysis of the deposited data

Results flagged for a closer look

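For 6 combinations of a gene and a pair of libraries, the log2 ratios of single classes took both signs with intervals that exclude 0, and the classes with the highest and the lowest such ratio are given for each. The differences between classes were not tested, since each group had 1 library. Cxcl16 in COX2i + 5-AZA against COX2i had a log2 ratio of 1.89 in NK cells, on 386 against 14 UMIs, and -0.85 in cDC1. The macrophage markers of those NK cells summed to 3913 CPM in COX2i + 5-AZA and 1909 CPM in COX2i, their part not being tested. Against CTRL, Cxcl16 in COX2i + 5-AZA was at 0.75 in TAM_Spp1 and -1.13 in neutrophils. The macrophage markers of neutrophils summed to 34896 CPM in CTRL (neutrophil markers 25584 CPM) and 4992 CPM in COX2i + 5-AZA, their part not being tested. Against IRF3/7, Cxcl16 in COX2i + 5-AZA was at 3.35 in Myofibrobl, on 166 against 26 UMIs, and -0.22 in Infl_Mono. Cxcl9 in COX2i + 5-AZA against COX2i was at 3.30 in Myofibrobl and -1.32 in NK cells, and also below 0 in Monocyte_1 (-0.87, on 23016 and 3322 UMIs). In NK cells of COX2i 95.7% of the 46 Cxcl9 UMIs came from 1 cell, and without the top cell of each library the ratio was 2.78. Cxcl9 in IRF3/7 against CTRL was at 6.01 in Myofibrobl, on 150 UMIs with 87 in 1 cell against 5 in CTRL, and -0.27 in Infl_Mono, which without the top cell of each library was at 1.64. Macrophage markers in Infl_Mono summed to 50551 CPM in CTRL, 9568 CPM in IRF3/7 and 6888 CPM in COX2i + 5-AZA, and their part was not tested. Cxcr3 in COX2i + 5-AZA against CTRL was at 1.96 in Myofibrobl and -2.13 in TAM_Spp1, the latter on 2 against 18 UMIs.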

How the results depend on the processing

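No paired analysis was possible because each group had 1 library, and no replicate could be left out. Removing the cell with the most UMIs of the gene in each library was added after seeing the data. Over all cells every ratio of Cxcl9 and Cxcl10 kept its direction under each alternative, and the values outside the counting interval follow, with the cause not tested unless the alternative itself shows it. For Cxcl9, IRF3/7 against CTRL (3.15) gave 3.43 with median-of-ratios size factors, 3.32 in cells with more than 2000 genes, 0.28 at the class mix of CTRL (6 classes with 31.9% of its cells, 2.47 as found), 2.81 as a mean of the CPM of single cells, 3.25 without the 1% of cells with the most UMIs and 3.26 without the top cells. COX2i against CTRL (2.15) gave 2.38 in the deeper cells, 1.62 at the class mix and 2.24 without the top cells. COX2i + 5-AZA against CTRL (4.66) gave 4.83, 5.05, 3.61 and 4.32 with size factors, deeper cells, class mix and single-cell means, 4.47 without the non-immune class and 4.78 without the top cells. COX2i + 5-AZA against COX2i (2.51) gave 2.69, 2.67, 1.65, 2.11, 2.36 and 2.54 in the same order. COX2i + 5-AZA against IRF3/7 (1.51) gave 1.40 with size factors, 1.73 in deeper cells, 1.95 at the class mix, 1.31 without the non-immune class and 1.38 without the 1% of cells.

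For Cxcl10, IRF3/7 against CTRL (5.66) gave 5.94 with size factors, 3.33 at the class mix (5.08 as found in the 6 classes), 5.47 as a mean of single cells, 5.78 without the non-immune class and 5.78 without the 1% of cells. COX2i against CTRL (1.98) gave 2.16 in deeper cells, 1.86 at the class mix and 1.85 as a mean of single cells. COX2i + 5-AZA against CTRL (4.47) gave 4.64, 4.74, 4.11 and 4.17 with size factors, deeper cells, class mix and single-cell means. Against COX2i (2.48) it gave 2.67, 2.58, 2.34 and 2.31 in that order, 2.37 without the non-immune class and 2.53 without the top cells. Against IRF3/7 (-1.19) it gave -1.30, -0.90, -0.19 and -1.30 in that order, -1.36 without the non-immune class and -1.29 without the 1% of cells.

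Among other results whose counting interval excluded 0, signs turned as follows. At the class mix these were Cxcl9 in monocytes and macrophages of IRF3/7 against CTRL (-0.17) and Cxcl16 in those cells for IRF3/7 against CTRL (0.23, and 0.17 with size factors), both over 3 classes with 20.9% of the CTRL cells that gave 2.21 and -0.60 as found, and COX2i + 5-AZA against IRF3/7 (-0.013). In cells with more than 2000 genes they were Cxcr6 over all cells for COX2i + 5-AZA against COX2i (-0.24), Cxcl9 in Infl_Mono for COX2i against CTRL (-1.0), Cxcl10 in Monocyte_1 (0.41) and Cxcl16 in Infl_Mono (0.0089) for COX2i + 5-AZA against IRF3/7. Cxcl9 in Infl_Mono for IRF3/7 against CTRL gave 0.016 with size factors of that class and 1.64 without the top cells, and Cxcl9 in NK cells for COX2i + 5-AZA against COX2i gave 2.78 without the top cells. The log2 ratio of Cxcl9 to Cxcl10 UMIs in Infl_Mono of CTRL went from -1.76 to -3.43 without the top cells, the IRF3/7 library then being no longer lowest. By Spearman's rho, Ncf1 ranked 154 for Cxcl16 and Clnk 4589 for Cxcr3. A 4-fold limit in place of 2-fold left 62 to 648 genes in place of 299 to 1936 per comparison and direction over all cells. Signs also turned in some ratios whose interval held 0, mostly of Cxcr6, which at the class mix went from 0.37 to -1.44 in IRF3/7 against CTRL and from -0.59 to 0.49 in COX2i + 5-AZA against IRF3/7. Depth limits Cxcr6, with 10 to 26 UMIs per library.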
